A study of Drosophila melanogaster with 24 samples.

Results

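The 6 libraries described here are those of uninjured (control) brains in a study of traumatic brain injury in adult Drosophila melanogaster, 3 labelled female and 3 labelled male, out of 24 libraries in all. They were taken by their labels, and every gene counted in them was compared. All flies were of the w1118 strain, a white-eyed laboratory line, and were mated adults of 10 to 14 days, each library being made from a single brain. The other 18 libraries come from brains taken 1, 2 or 4 hr after a single strike to the fly, again 3 for each sex label, and are used here only to set the control difference beside the same difference after injury. The comparison asks how far the baseline transcript levels of the brain differed with sex label before any injury.

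In flies, sex is read from the number of X chromosomes by Sex lethal (Sxl), an RNA-binding protein that is made in females and steers the splicing of transformer (tra). With transformer-2 (tra2), tra sets the sex-specific splicing of doublesex (dsx) and fruitless (fru), the transcription factors that shape sexual differentiation of the body and of the nervous system. Males raise transcription of their single X through the MSL complex, which carries the non-coding RNAs roX1 and roX2 and is blocked in females, where Sxl stops the translation of msl-2. In adults, the yolk protein genes Yp1, Yp2 and Yp3 are transcribed in the fat body and ovary of females. roX1, roX2 and the yolk proteins are therefore the transcripts by which the label of a library can be checked, whereas 3′ tags do not show how Sxl, tra, dsx or fru were spliced.

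Libraries were made by 3′ mRNA-Seq, in which reads start from the poly(A) end of a transcript, so that a count stands for a transcript end and not for transcript length. Total counts were 238289, 1193051 and 52388 in female-labelled replicates 1, 2 and 3, and 527464, 418494 and 72792 in male-labelled replicates 1, 2 and 3. Levels are given below in CPM, the counts after TMM scaling to a common library total, and values for 3 libraries are always in the order of replicates 1, 2 and 3. A single count was worth 0.813 to 15.5 CPM, and a gene with no count in a library may still have been present at as many as 3 counts, which is 2.44 to 46.4 CPM, a limit that covers counting error only. The number of genes with at least 1 count was 6693, 6540 and 4594 in the female-labelled libraries and 7410, 6306 and 5232 in the male-labelled ones. At an equal depth of 52388 counts these numbers were 4715, 4369 and 4594 against 4678, 4334 and 4767, with no detectable difference by label (exact permutation test, two-sided, p = 0.8, where 3 against 3 libraries cannot go below 0.1).

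The libraries numbered 2 stood apart from the other 4 controls. Over 1901 genes at equal depth, the correlation of log levels was 0.885 to 0.909 among pairs of the female-labelled and male-labelled libraries numbered 1 and 3, but 0.737 to 0.811 for each pair with male-labelled replicate 2 and 0.802 to 0.86 for the other pairs with female-labelled replicate 2. Pairs with the same label (0.77 to 0.903) and pairs with different labels (0.737 to 0.909) covered nearly the same range. The chi-square statistic of the counts per degree of freedom at equal depth was lowest for female-labelled replicate 1 with male-labelled replicate 3 (1.24), for female-labelled replicates 1 and 3 (1.26) and for female-labelled with male-labelled replicate 3 (1.32). No pair was identical, and no 2 libraries were alike within counting error, the only error that this statistic covers. In male-labelled replicate 2, 10 genes took 27.2% of the counts, against 15.2 to 16.4% in the other 5.

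The transcripts of dosage compensation did not separate the sex labels. roX1 stood at 926, 1261 and 804 CPM in the female-labelled controls and at 950, 714 and 958 CPM in the male-labelled ones. The ranges overlap, and the highest level of all is that of a female-labelled library. Its log2 fold change (log2FC, female-labelled over male-labelled) was 0.20 ± 0.81 (standard error), with an adjusted p of 1 in edgeR's quasi-likelihood test. Standard errors here were computed back from the log2FC and the statistic of that test. They rest on the spread within all 8 groups of the 24 libraries, injured ones included, and not on the controls alone. In a fit of the 6 controls alone the log2FC was 0.15 (unadjusted p = 0.622, edgeR). roX2 stood at 159, 161 and 170 CPM in the female-labelled libraries and 147, 89.6 and 180 CPM in the male-labelled ones. The lowest of these 6 values, too, belongs to a male-labelled library, and the log2FC was 0.26 ± 0.88. These 2 RNAs coat the male X, and their levels in the female-labelled controls go against the label: they lay among those of the male-labelled controls. For this reason the groups are called by their labels throughout. In the female-labelled injured libraries roX1 ran from 6.20 to 1059 CPM (median 801) and roX2 from 2.07 to 163 CPM (median 136). The male-labelled injured libraries held 716 to 1024 CPM (median 946) of roX1 and 102 to 182 CPM (median 145) of roX2.

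Most other genes of dosage compensation gave few reads, while mle and JIL-1 were read more. The MSL complex subunit translated only in males, msl-2, had 0 reads in the female-labelled controls and 2 in the male-labelled ones. No control held a read of mof, the histone acetyltransferase of the complex. msl-1, its scaffold, was at 7.95, 0 and 0 CPM against 21.8, 8.40 and 0 CPM, and msl-3, Clamp and MTA1-like had 19, 4 and 2 reads against 4, 2 and 5. mle, the RNA helicase that loads roX RNA, was at 51.6, 43.1 and 0 CPM against 41.8, 44.8 and 11.97 CPM, and JIL-1, a histone kinase enriched on the male X, at 270, 212 and 263 CPM against 244, 112 and 180 CPM. Both ranges overlap. Of the 11 genes in the dosage compensation list 5 were tested, 4 with a log2FC above 0 and 1 below, with a median of 0.20 beside -0.02 for all 5462 genes tested. None passed the test, and without female-labelled replicate 2 the median was -0.01.

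**Figure D1:**
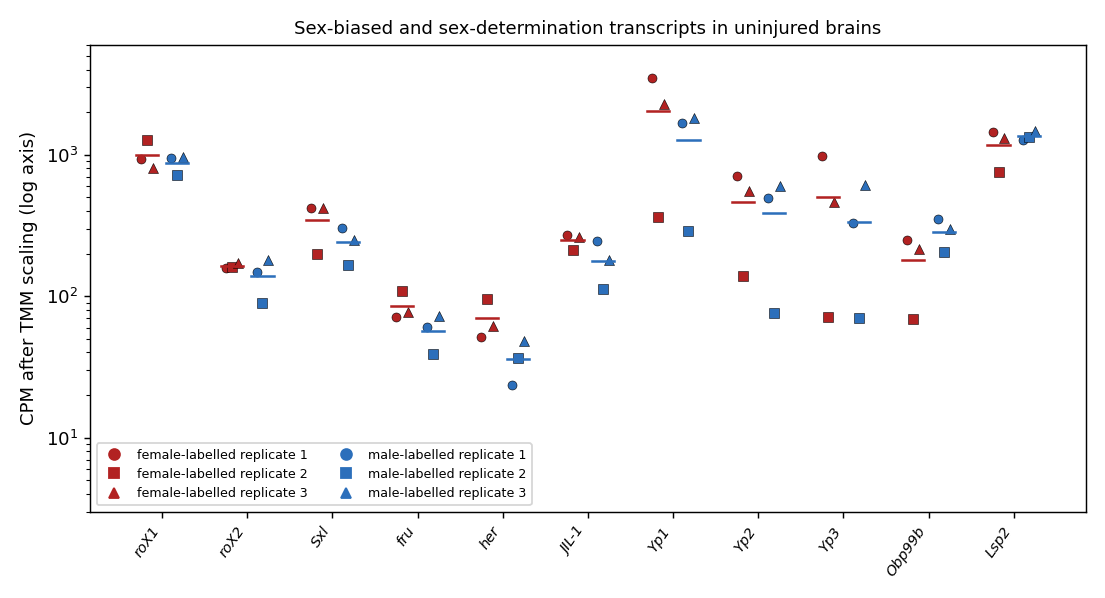
Level of 11 transcripts of dosage compensation, sex determination and the fat body in each uninjured library, in CPM on a log axis. Red points are female-labelled and blue points male-labelled libraries, the shape gives the replicate and the short line the arithmetic mean of 3 libraries. roX1 and roX2 lie at overlapping levels under both labels, and the squares (replicate 2) of both labels lie lowest for Yp1, Yp2 and Yp3.

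The yolk protein genes overlapped between the labels and were lowest in replicate 2 under each of them. Yp1 was at 3504, 365 and 2289 CPM in the female-labelled controls and 1685, 288 and 1832 CPM in the male-labelled ones. The male-labelled replicates 1 and 3 thus lay above female-labelled replicate 2. The log2FC was 0.70 ± 0.85, less than its standard error. Yp2 was at 703, 138 and 557 CPM against 493, 75.6 and 599 CPM (log2FC 0.26 ± 0.97). Yp3 was at 973, 71.6 and 464 CPM against 329, 70 and 611 CPM (log2FC 0.61 ± 1.01). No yolk protein gene passed the test in controls. In male-labelled replicates 1 and 3 all 3 genes lay within the range of the female-labelled controls, which goes against the male label. The roX RNAs and the yolk proteins thus go against different labels, and the origin of this was not tested. In the injured libraries the same 3 genes were higher under the female label, Yp1 by 2.07 on the log2 scale (unadjusted p = 0.000399, adjusted p = 0.344, edgeR), with 1219 to 22268 CPM (median 3312) in 9 female-labelled and 723 to 2258 CPM (median 1714) in 9 male-labelled libraries. Without female-labelled 2 hr and 4 hr replicate 2, the 2 libraries of the series lowest in roX1, that difference was 1.60 (unadjusted p = 0.00256, adjusted p = 1).

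Other transcripts of the fat body and head with a known sex bias overlapped as well. Obp99b, an odorant-binding protein transcribed more strongly in male heads, was at 250, 69.1 and 217 CPM in female-labelled and 353, 204 and 299 CPM in male-labelled libraries. takeout (to), a male-biased fat body gene of the head, was at 75.5, 21.96 and 92.8 CPM against 61.9, 36.4 and 71.8 CPM. Lsp2, a larval storage protein still transcribed in adult fat body, was at 1442, 757 and 1315 CPM against 1277, 1338 and 1473 CPM. The level of Lsp2 was lowest in female-labelled replicate 2 and close to even elsewhere. Regucalcin was at 513, 475 and 557 CPM against 448, 896 and 395 CPM and its relative smp-30 at 3.97, 20.3 and 0 CPM against 9.10, 140 and 11.97 CPM. Lsp1beta was at 79.5, 82.2 and 155 CPM against 94.6, 165 and 95.8 CPM and sxe2 at 67.5, 11.4 and 61.9 CPM against 78.2, 8.40 and 120 CPM. Obp99a, CG9360, Cyp4d21 and CG14147 were read at lower levels, and all of these genes overlapped. Of the 18 genes of this list that the files hold, 12 were tested, 5 above and 7 below 0 with a median log2FC of -0.20, and none passed at an adjusted or an unadjusted p under 0.05. Without female-labelled replicate 2 that median was 0.02. The ovary and testis lists were nearly silent, with no read in any control for 13 of 18 ovary genes and 20 of 22 testis and accessory gland genes. The Y chromosome had 1 read in all, in female-labelled replicate 2.

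Among the genes of sex determination, Sxl was at 421, 200 and 418 CPM in the female-labelled controls and 302, 165 and 251 CPM in the male-labelled ones. Its log2FC was 0.51 ± 0.55, and the groups overlapped. fru, which marks the neurons of male courtship, was at 71.5, 108 and 77.3 CPM against 60.03, 39.2 and 71.8 CPM (log2FC 0.65 ± 0.53). hermaphrodite (her), a zinc-finger protein needed for sexual differentiation, was the one member of the list whose female-labelled values all lay above the male-labelled ones, at 51.6, 95.2 and 61.9 CPM against 23.6, 36.4 and 47.9 CPM. The difference was not past the test (log2FC 1.05 ± 1.09). tra2 lay the other way, at 7.95, 7.32 and 0 CPM against 12.7, 44.8 and 23.9 CPM, on 11 and 25 reads. dsx was at 3.97, 17.9 and 0 CPM against 3.64, 30.8 and 0 CPM, and tra had no read. Daughterless (da), a partner of the X-linked signals that switch Sxl on, was at 215, 357 and 217 CPM against 297, 224 and 239 CPM, and fl(2)d, a cofactor of Sxl splicing, at 47.7, 30.9 and 77.3 CPM against 25.5, 28 and 71.8 CPM. The splicing protein gene snf was at 27.8, 1.63 and 30.9 CPM against 32.7, 0 and 35.9 CPM. All 3 overlapped. ix, vir and run had 2, 4 and 2 reads in the female-labelled and 8, 0 and 12 in the male-labelled controls. Of 15 listed genes 8 were tested, 5 above and 3 below 0 with a median log2FC of 0.20, and all had an unadjusted p over 0.05.

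Reads from the X chromosome made up 19.2, 16.8 and 19.5% of counts in the female-labelled controls and 19.0, 25.0 and 19.8% in the male-labelled ones. The difference was not larger than the spread between libraries (exact permutation test, two-sided, p = 0.3, adjusted over 4 library measures 0.8). The high value is that of male-labelled replicate 2, where a single X-linked non-coding transcript, MRE16 (CR34335), took 13.9% of all counts against 1.11 to 2.93% in the other 5. Without MRE16 the shares were 17.4, 15.9 and 17.8% against 16.6, 12.9 and 17.4% (exact permutation p = 0.6). Gene by gene, 954 X-linked genes had a median log2FC of 0.06, with 54.9% above 0, and 4468 autosomal genes a median of -0.04, with 47.2% above 0. The medians thus lay 0.10 apart, about the standard deviation of that same quantity among libraries of one label (0.0992), and 0.0145 apart without male-labelled replicate 2.

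Across all genes, no transcript passed the test between the labels. Of 5462 genes tested in a fit of all 24 libraries, 0 (0%) were called by edgeR at |log2FC| over 1 and an adjusted p below 0.05, and the lowest adjusted p was 1. DESeq2, limma-voom with and without sample weights, edgeR's exact test and its likelihood ratio test also called 0 genes. At an unadjusted p under 0.05 and the same fold limit, 26 genes (0.476%) lay higher and 81 (1.48%) lower in the female-labelled controls. At that p and any fold there were 111 genes (2.03%), fewer than the 273 that make up 5% of the genes tested. That number depends on the injured libraries in the fit. Without female-labelled 2 hr and 4 hr replicate 2 it was 239 of 5386 genes, and the lowest adjusted p was 0.542 (edgeR). The groups did not overlap for 192 genes (3.52%) with all female-labelled values above the male-labelled ones and for 210 (3.84%) with all below. The genes named below from among these are given as values, since none is called.

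**Figure D2:**
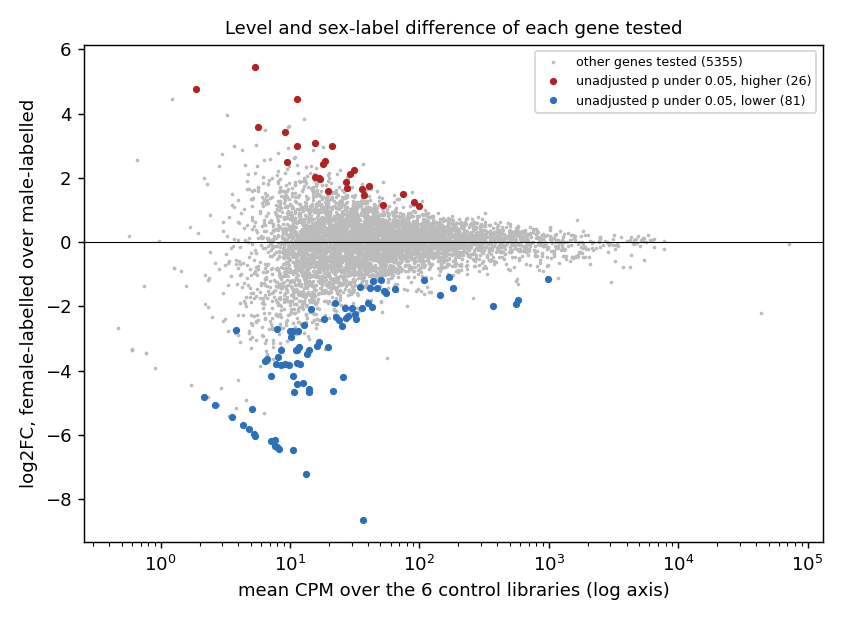
Mean level of each of 5462 genes over the 6 control libraries (CPM, log axis) against its log2FC, female-labelled over male-labelled. Red and blue points are the 26 higher and 81 lower genes at an unadjusted p under 0.05 and |log2FC| over 1, most of which lie at low levels. No gene passed the adjusted test.

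The genes that lay lower in the female-labelled controls were mostly rare transcripts read in male-labelled replicate 2. Of the 81, 64 had their highest level in that library, 12 in male-labelled replicate 3 and 5 in male-labelled replicate 1, and of the 2795 tested genes with their highest level in a male-labelled library 53.6% had it there. Their median level was 2.65 CPM in the female-labelled and 25.2 CPM in the male-labelled libraries. In 16 of them no female-labelled library held a read, and in 45 the 3 libraries together held 3 reads or fewer. The groups did not overlap for 43 of the 81, and for 3.84% of all genes tested in that direction. The 81 were taken for a large difference between these same libraries, so frequent lack of overlap follows from the choice. For the genes named below it is a description of values and adds no support.

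The lowest p belonged to CG13827 (Pex11c), a peroxisome biogenesis gene. It was at 0, 0 and 0 CPM in the female-labelled and 9.10, 25.2 and 11.97 CPM in the male-labelled controls, on 0 and 15 reads. Against a floor of 3 reads over the female-labelled group, the pooled level was 7.8-fold higher under the male label (unadjusted p = 0.000411, adjusted p = 1 for the gene, edgeR). Pooled values here and below, with their intervals, leave out the spread between libraries. They also weigh the deepest library most, which under the female label is replicate 2. nom was at 0 in all 3 female-labelled libraries and 9.10, 28 and 11.97 CPM in the male-labelled ones. CHMP2B, part of the ESCRT-III complex that severs membranes, was likewise unread under the female label and at 7.28, 28 and 11.97 CPM under the male label. In all 3 the values of the labels did not overlap as counted, on 15 or 16 reads, although a 0 in female-labelled replicate 3 allows up to 46.4 CPM.

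grass, a serine protease of the cascade that activates the Toll receptor, was at 3.97, 0.813 and 0 CPM in the female-labelled and 20.01, 67.2 and 35.9 CPM in the male-labelled controls. With 2 against 38 reads, the pooled ratio was 29.7 (95% counting interval 7.66 to 254), and the fitted log2FC was -4.63 ± 1.30. Every male-labelled value lay above every female-labelled one. After injury the log2FC was 1.42 (unadjusted p = 0.0105), or 0.72 (unadjusted p = 0.122) without female-labelled 2 hr and 4 hr replicate 2. Maf1, the repressor of RNA polymerase III, was at 3.97, 0.813 and 0 CPM against 27.3, 28 and 11.97 CPM, a pooled ratio of 20.3 (5.08 to 176). CG32576 and CG18661 were unread under the female label and at 7.28, 8.40 and 47.9 CPM and 10.9, 11.2 and 23.9 CPM under the male label. Cct2 was at 12.7, 19.6 and 0 CPM under the male label with no female-labelled read, and its symbol fits more than one gene of the reference, so no role is given.

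In other genes the reads came nearly all from 1 library. CG31075 had 0 against 82 reads and stood at 14.6, 207 and 0 CPM in the male-labelled controls, a pooled level 42.7-fold higher than the floor of 3 reads. Replicate 2 alone accounts for most of it, and replicate 3 had no read. It was the 1 gene that edgeR called when no filter on low counts was applied (10345 genes, adjusted p = 0.0457). CG1441 was at 7.28, 72.8 and 0 CPM in the male-labelled libraries and MtnB, a metallothionein, at 0, 120 and 0 CPM, with no female-labelled read for either. CG4325 (21 reads) and CG16885 (Vajk2, 19 reads) complete the 5 genes with the most reads under the male label and none under the female label.

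Only 8 of the 81 lower genes had a mean level over 50 CPM under both labels, and all 8 were highest in male-labelled replicate 2. They are named here after their values had been seen. Got2, the mitochondrial aspartate aminotransferase, was at 131, 204 and 108 CPM in the female-labelled and 164, 1434 and 180 CPM in the male-labelled controls. CG31904 was at 211, 341 and 217 CPM against 224, 2122 and 371 CPM, and CG7203 at 203, 180 and 340 CPM against 233, 2036 and 359 CPM. In all 3 genes the male-labelled replicates 1 and 3 lay within or close to the female-labelled range. Nplp3, a neuropeptide-like precursor, was at 814, 526 and 510 CPM against 739, 2520 and 862 CPM (log2FC -1.15 ± 0.50). fbp, the gluconeogenic enzyme fructose-1,6-bisphosphatase, was at 63.6, 59.4 and 92.8 CPM against 85.5, 392.0 and 168 CPM, and SERCA, the calcium pump of the endoplasmic reticulum, at 59.6, 88.7 and 46.4 CPM against 92.8, 246 and 120 CPM. Spat and CG7322 are the others.

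The 26 genes that lay higher in the female-labelled controls had a median level of 31 CPM there and 7.37 CPM under the male label. Their highest library was female-labelled replicate 2 in 18, replicate 1 in 6 and replicate 3 in 2. Of the 2667 tested genes with their highest level in a female-labelled library, 41.1% had it in replicate 2. The labels did not overlap for 14 of the 26, and for 3.52% of all genes tested in that direction. The 26, too, were taken for their difference in these same libraries. Mekk1, a kinase that activates stress MAP kinase signalling, was at 91.4, 149 and 92.8 CPM in the female-labelled and 50.9, 39.2 and 23.9 CPM in the male-labelled controls. All 3 female-labelled values lay above the male-labelled ones (log2FC 1.49 ± 0.54, unadjusted p = 0.0111, adjusted p = 1, edgeR). CG10778 (Dhdds), an enzyme of dolichol synthesis, was at 47.7, 81.3 and 61.9 CPM against 14.6, 28 and 11.97 CPM. CG17746 was at 119, 145 and 124 CPM against 85.5, 28 and 47.9 CPM. Its lowest female-labelled value was above its highest male-labelled one. Besides CG17746, Rab9, a GTPase of late endosome traffic, was the other gene of the 26 with a mean over 50 CPM under both labels, at 111, 181 and 108 CPM against 83.7, 25.2 and 83.8 CPM, and is named after its values had been seen.

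CG8366 was at 27.8, 42.3 and 15.5 CPM in the female-labelled and 7.28, 0 and 0 CPM in the male-labelled controls, with 60 against 4 reads. Pask, the PAS domain kinase of nutrient sensing, was at 59.6, 23.6 and 46.4 CPM against 18.2, 2.80 and 11.97 CPM. CG11857 was at 63.6, 37.4 and 61.9 CPM against 20.01, 5.60 and 0 CPM. In these 3 genes, too, the labels did not overlap. CG4806 was at 51.6, 11.4 and 15.5 CPM against 9.10, 5.60 and 0 CPM, also without overlap. Sidpn, a basic helix-loop-helix repressor, was at 15.9, 0.813 and 15.5 CPM and CG17600 at 3.97, 7.32 and 0 CPM in the female-labelled libraries, on 6 and 10 reads, and both were unread under the male label. The 5 genes with the most reads under the female label and none under the male label were png, a kinase of egg activation, CG46059, janB, CG14906 (Mettl4) and CG16995, with 24 to 35 reads. For png, janB and CG16995 all of them came from female-labelled replicate 2.

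**Figure D3:**
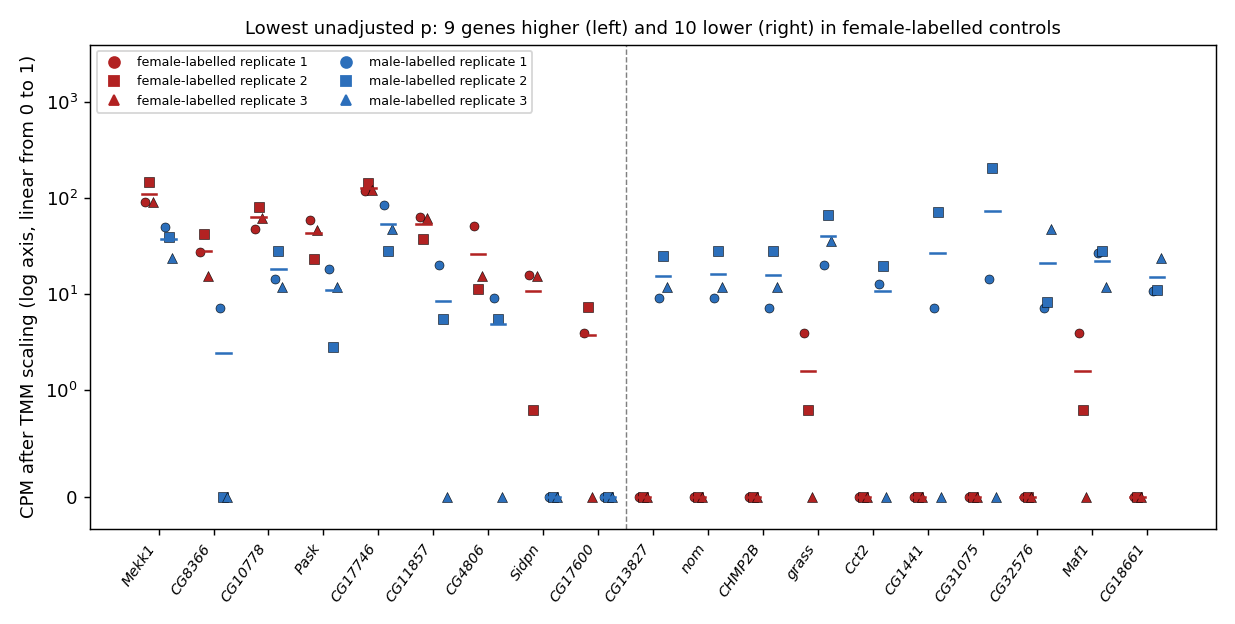
Levels of 9 genes higher (left) and 10 genes lower (right) under the female label, from those of lowest unadjusted p, in the 6 control libraries, in CPM on an axis that is logarithmic above 1 and linear from 0 to 1. Red is female-labelled, blue male-labelled, shapes are replicates and short lines means of 3. Most of the genes on the right have no read in any female-labelled library, and CG1441 and CG31075 are read mainly in male-labelled replicate 2.

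Leaving out the libraries numbered 2 under both labels, an alternative added after the data had been seen, left 13 genes higher and 28 lower of 5888 at an unadjusted p under 0.05 and |log2FC| over 1, and 0 after adjustment (edgeR). Of the 107 genes above, 11 were among them. CG13827 and nom had log2FCs of -5.66 (unadjusted p = 0.0342) and -5.67 (unadjusted p = 0.0329) in that fit, grass -3.01 (unadjusted p = 0.0892) and Mekk1 1.15 (unadjusted p = 0.12). Leaving out single libraries moved the count of higher genes between 12 (without male-labelled replicate 2) and 120 (without male-labelled replicate 1) and that of lower genes between 57 (without male-labelled replicate 2) and 217 (without female-labelled replicate 1), with 148 lower genes without male-labelled replicate 1 and 0 adjusted calls each time.

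The transcripts with the highest counts were shared by the labels. noe, a non-coding RNA of the nervous system, was at 73512, 76427 and 61584 CPM in the female-labelled and 72048, 81414 and 67026 CPM in the male-labelled controls, a log2FC of -0.06 ± 0.45. MRE16 was at 20199, 10820 and 15887 CPM against 27224, 162747 and 25503 CPM. Every male-labelled value was above every female-labelled one, yet the log2FC of -2.20 ± 1.08 (unadjusted p = 0.0539) was -0.56 without the libraries numbered 2. The ribosomal protein genes RpS25, RpL15, RpS14a and RpL8 followed. RpS25 was at 8598, 7142 and 7735 CPM against 10034, 5144 and 7651 CPM and RpL15 at 6313, 10611 and 4579 CPM against 7821, 11908 and 5101 CPM, with overlap in both.

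Lists of cell type markers were read under both labels at similar summed levels. In bulk tissue, fewer cells of a type and less RNA per cell cannot be told apart. The 18 neuron markers, all of them read, summed to 6650, 6080 and 6250 CPM in the female-labelled and 6320, 4490 and 6140 CPM in the male-labelled controls, with 12 of 17 tested genes above 0 (median log2FC 0.18). Genes of synaptic vesicles and active zones summed to 6790, 6350 and 6330 CPM against 6320, 3960 and 6670 CPM, with 21 of 27 above 0 and a median of 0.25. Male-labelled replicate 2 was the low library in both lists, and without it the median of the synaptic list was 0.02. Without both libraries numbered 2 it was -0.03. A single member lay the other way at an unadjusted p under 0.05: Syt7, a synaptotagmin that senses calcium, at 11.9, 5.69 and 0 CPM against 29.1, 56 and 47.9 CPM (log2FC -2.62 ± 0.95, unadjusted p = 0.0111). Of all genes tested, 1.48% lay lower at that p with |log2FC| over 1.

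Glial markers summed to 2720, 2200 and 2340 CPM in the female-labelled and 2500, 2050 and 2630 CPM in the male-labelled libraries, with 10 of 16 tested genes above 0. repo, the transcription factor that defines glia, went against that count. It was at 7.95, 0.813 and 0 CPM under the female label and 25.5, 11.2 and 23.9 CPM under the male label, on 3 and 20 reads (unadjusted p = 0.0494). alrm, a marker of astrocyte-like glia, was at 3.97, 6.51 and 0 CPM against 25.5, 14 and 11.97 CPM. Neither gene overlapped between labels as counted. Another 2 markers without overlap lay the other way, nrv2, a sodium pump subunit, at 429, 348 and 387 CPM against 335, 308 and 347 CPM and moody, a receptor of the blood-brain barrier, at 47.7, 54.5 and 46.4 CPM against 38.2, 33.6 and 23.9 CPM. The photoreceptor list summed to 10600, 5840 and 8490 CPM against 10900, 5260 and 9930 CPM, so that retinal transcripts were read in every one of these brains and lowest in replicate 2 under each label. The fat body list summed to 12800, 6270 and 10000 CPM against 8790, 6410 and 9910 CPM and was also lowest there. Muscle genes summed to 4250 to 5140 CPM against 4590 to 6510 CPM and haemocyte genes to 1140 to 1220 CPM against 1190 to 1650 CPM, both highest in male-labelled replicate 2. The part of these tissues in the differences above was not tested.

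**Figure D4:**
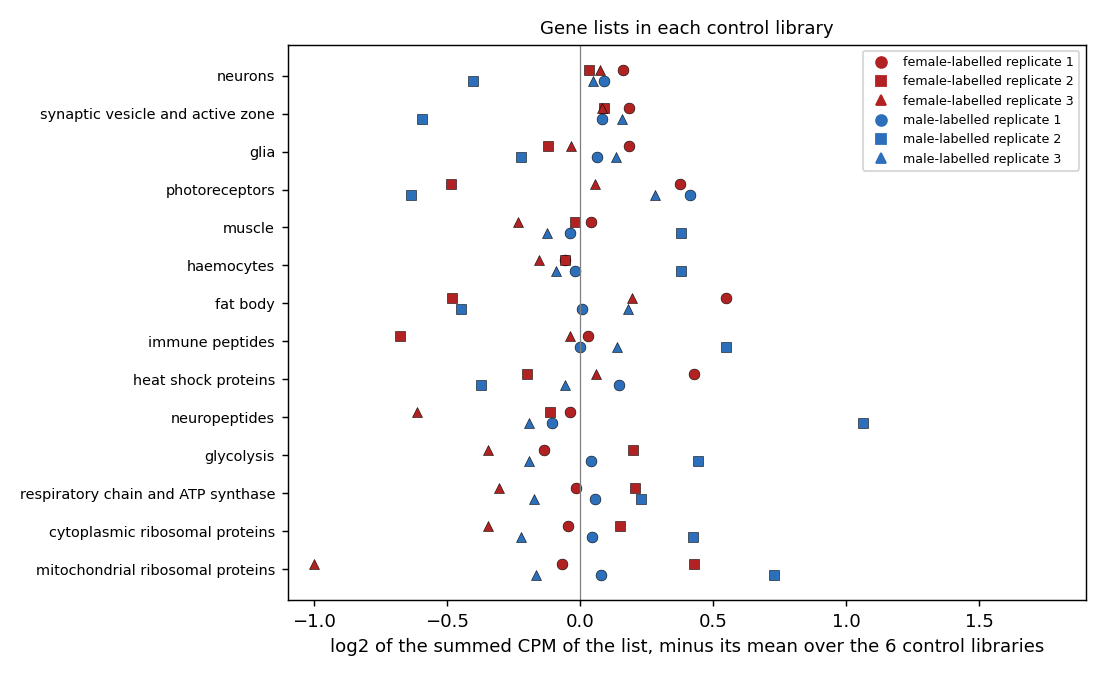
Summed CPM of 14 gene lists in each control library, as log2 minus the mean over the 6 libraries. Red is female-labelled, blue male-labelled, and shapes are replicates. The blue square, male-labelled replicate 2, lies lowest for neurons, synaptic genes and photoreceptors and highest for neuropeptides, immune peptides and ribosomal proteins.

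Immune genes tended to lower values under the female label, without a call. Of 29 genes for antimicrobial and other immune peptides, 18 were tested, 4 above and 14 below 0, with a median log2FC of -0.53, and 5 did not overlap, all lower under the female label (3.84% of all genes tested). CecA2, a cecropin, was at 0, 1.63 and 0 CPM in the female-labelled and 10.9, 14 and 11.97 CPM in the male-labelled controls. Drsl4, of the drosomycin family, was at 7.95, 11.4 and 0 CPM against 25.5, 44.8 and 23.9 CPM, and IM4 (Dso1) at 469, 231 and 325 CPM against 429, 1403 and 503 CPM. The median rested on female-labelled replicate 2: without it, it was -0.0035. Among 25 tested genes of peptidoglycan recognition, Toll and Imd, 6 lay above and 19 below 0 (median -0.25), and next to grass the adaptor Tab2 of the Imd pathway was at 7.95, 0 and 0 CPM against 10.9, 39.2 and 11.97 CPM (unadjusted p = 0.00976). These 2 lay lower at an unadjusted p under 0.05 and |log2FC| over 1, as did 1.48% of all genes tested. The JAK-STAT and Turandot list did not lean, with 5 of 9 tested genes above and 4 below 0, a median of 0.0025 and 1 gene lower at that p and fold limit (1.48% of all genes tested). That gene, Tep4, a thioester protein of the haemolymph, was at 3.97, 1.63 and 0 CPM against 23.6, 28 and 23.9 CPM (unadjusted p = 0.00333), on 3 and 25 reads.

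Transcripts of energy metabolism and translation also leaned to the male label. Of 17 glycolysis genes tested 3 lay above and 14 below 0 (median -0.44), among them Gapdh2 at 282, 159 and 232 CPM in the female-labelled and 277, 501 and 395 CPM in the male-labelled controls. Of 58 mitochondrial ribosomal protein genes tested 17 lay above and 41 below 0 (median -0.48), and of 83 cytoplasmic ribosomal protein genes 15 above and 68 below (median -0.23). RpL23A was at 123, 130 and 108 CPM against 162, 902 and 144 CPM. Without male-labelled replicate 2 the 3 medians were -0.04, 0.04 and 0.03. The 67 tested genes of the respiratory chain and ATP synthase also lay mostly below 0, with 21 above and 46 below, but by a smaller median (-0.12). That median was 0.0017 with library size alone as the scaling and 0.04 without male-labelled replicate 2.

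In the lists of detoxification and redox genes, Cyp6g1, a P450 known for insecticide resistance, was at 19.9, 22.8 and 0 CPM in the female-labelled and 34.6, 123 and 59.9 CPM in the male-labelled controls (unadjusted p = 0.0204). The labels did not overlap, and 7 of 28 tested P450 and glutathione transferase genes lay above 0 and 21 below (median -0.24, or 0.10 without male-labelled replicate 2). Gclm, the modifier subunit of the enzyme that starts glutathione synthesis, was at 87.4, 53.7 and 77.3 CPM against 103.7, 196 and 156 CPM. Heat shock genes leaned the other way, with 10 of 15 above 0 and a median of 0.15, which was -0.09 without female-labelled replicate 1. The small heat shock gene Hsp26 was at 55.6, 18.7 and 30.9 CPM against 16.4, 8.40 and 11.97 CPM, without overlap. Mmp1, a matrix metalloproteinase, was at 31.8, 40.7 and 15.5 CPM against 16.4, 2.80 and 11.97 CPM (unadjusted p = 0.0364). Among 33 neuropeptide genes tested, 19 above and 14 below 0, Tk (tachykinin) was at 15.9, 34.2 and 0 CPM against 7.28, 0 and 0 CPM, with overlap, and Nplp2 was at 2062, 1843 and 1470 CPM against 2025, 8372 and 2239 CPM, high in male-labelled replicate 2 alone. Clock genes had 6 of 9 above 0 and a median of 0.04. Of the genes related to mating, 8 of 13 lay above 0, and SPR, the receptor of sex peptide, was at 15.9, 30.9 and 30.9 CPM against 12.7, 0 and 23.9 CPM.

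The 18 injured libraries hold the same contrast of labels in other brains. Averaged over 1, 2 and 4 hr, 0 genes passed the adjusted test (edgeR, lowest adjusted p = 0.242), and at an unadjusted p under 0.05 and |log2FC| over 1 310 genes (5.68%) lay higher and 19 (0.348%) lower under the female label. Without female-labelled 2 hr and 4 hr replicate 2 these counts were 54 and 19 of 5386. Of the 107 control genes, 24 (22.4%) had the same sign after injury, against 37.4% of all genes tested, and 0 did so at an unadjusted p under 0.05. For 13 the sign was the opposite one at that p. These counts of signs were made with those 2 libraries included and were not repeated without them. Immune peptides had a median log2FC of 1.77 after injury, 0.62 without those 2 libraries. In controls it was -0.53, or -0.0035 without female-labelled control replicate 2. repo had a log2FC of 1.26 after injury, 0.40 without female-labelled 2 hr and 4 hr replicate 2, and -2.77 in controls. The difference between the control and the injured contrast, a test added after the data had been seen, passed for 0 genes after adjustment (lowest adjusted p = 0.638, CG13827), with 30 genes higher and 272 lower in the controls at an unadjusted p under 0.05 and |log2| over 1. That test, too, was run only with those 2 injured libraries included.

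**Figure D5:**
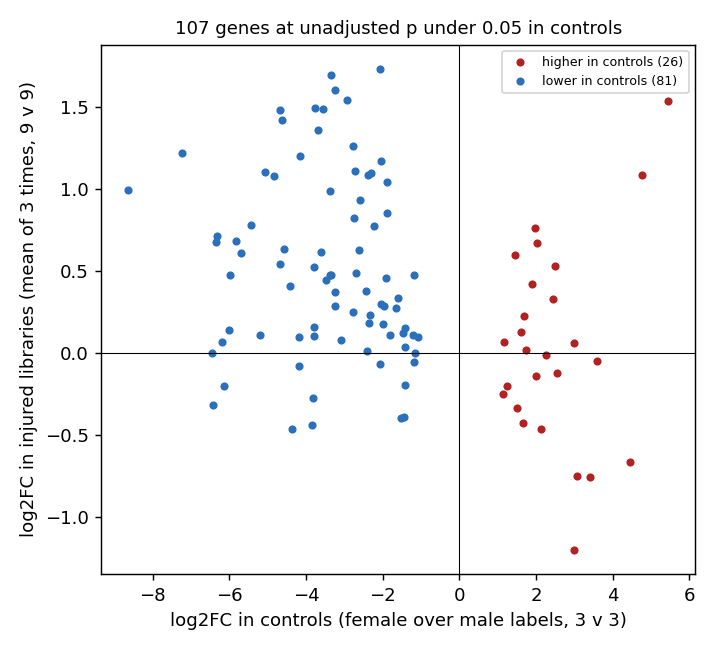
The 107 genes at an unadjusted p under 0.05 and |log2FC| over 1 in controls, with their log2FC in controls (3 against 3 libraries) on the x axis and in injured libraries (mean of 3 times, 9 against 9) on the y axis. Most of the 81 blue genes, lower under the female label in controls, lie above 0 after injury. Of all 107 genes 24 kept their sign.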

How the data were processed

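RNA was measured by QuantSeq 3′ mRNA-Seq in 24 single-brain libraries. For 16995 genes the authors deposited whole-number read counts, unscaled. The submitters' processing notes and the study's methods name CASAVA 1.8.2, STAR 2.4, the dm3 build, HTSeq and edgeR 3.22.3. For HTSeq, the version, the annotation and the strandedness are not given in the sources used, so reads of overlapping and antisense genes, and of near-identical genes, may be shared. The authors' 6 comparison tables hold log2 fold changes, levels, test statistics and p-values, and were not used.

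Counts of all 24 libraries were fitted with edgeR 4.0.16 in R 4.3.3 (quasi-likelihood test, TMM scaling, filterByExpr, a mean for each of 8 groups, Benjamini-Hochberg adjustment), and the female-labelled minus male-labelled control contrast was read from that fit. Alternatives used DESeq2 1.42.0, limma 3.58.1 voom, other scalings and filters, equal depth, other library sets, a replicate block and each control library left out in turn. The tests were tried first on simulated data. The study describes the samples as biological replicates. The p-values and standard errors of the main fit measure the spread between replicates over all 8 groups, injured ones included, and not that of the 6 controls alone. The common coefficient of variation between replicates was 0.614 in the 24 libraries and 0.426 in the 6 controls, where fewer genes were tested. Pooled ratios carry 95% counting intervals.

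Members and gene lists were chosen with earlier results of these data known. Named genes are the read members of the sex determination, dosage compensation and sex-biased lists, up to 10 genes each way of smallest p with |log2FC| over 1, the 5 most read under one label and unread under the other, the 5 most abundant, up to 3 members of each other list by smallest p, and any gene called by an alternative that called 5 or fewer. Of the genes that the rule allows for the other lists only some are printed, and 1 gene is not reported here. Gene symbols were matched to the reference for names and chromosomes only (16880 of 16995). The exclusion of both libraries numbered 2 and the contrast of controls with injured libraries were chosen after seeing the data.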

Additional observations from a re-analysis of the deposited data

How the results depend on the processing

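The count of 0 genes called between the control labels held under RLE size factors, library size alone, the stricter filter, other library sets, DESeq2, limma-voom, edgeR's exact and likelihood ratio tests, equal depth, the replicate block and each library left out. With no filter it was 1 (CG31075). The unadjusted counts of higher and lower genes, 26 and 81, were 45 and 246 with no filter, 0 and 3 with the stricter one (1305 genes tested), 8 and 41 with the 6 controls alone (3271 tested), 62 and 153 without female 2 hr and 4 hr replicate 2, 10 and 49 by the exact test, 40 and 123 by the likelihood ratio test, 2 and 13 at equal depth (946 tested) and 13 and 28 without both controls numbered 2. Fewer genes were tested under the stricter filter, in the 6 controls alone and at equal depth; for the other changes the cause was not tested. limma-voom with sample weights gave 71 higher genes and with equal weights 145 lower ones. Leaving out 1 library gave 12 to 120 higher and 57 to 217 lower genes.

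Same-numbered female and male controls had correlated deviations of 0.0589, 0.22 and 0.0996. Female replicates 2 and 3 correlated best with the male library of the same number, and female replicate 1 with male replicate 3 (0.108). The labels give the numbers no meaning, and they were not taken as pairs in the main fit. With a replicate block the counts were 22 higher and 76 lower in 24 libraries and 18 and 48 in the 6 controls, with 0 called. The X-to-autosome difference of 0.10 was 0 with no filter, where unread genes sit at 0, and 0.0145 to 0.151 with 1 library left out. Library size alone moved the median of all genes by 0.113. The sign of all 107 genes held wherever they were tested, save for 1 gene by limma-voom with sample weights, 1 without female replicate 2 and 3 without both controls numbered 2. The settings reuse the control libraries from which the 107 were chosen, so a kept sign adds no support. Only 8 of the 107 were tested under the stricter filter, 26 in the 6 controls alone and 4 at equal depth. Total counts of 52388 and 72792 in the replicates numbered 3 limited what could be seen of genes below 35.9 to 46.4 CPM there.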
